A study of Mus musculus with 8 samples.

Results

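Proteasome genes were read here in the livers of male mice given oxaliplatin, a platinum chemotherapy drug, to produce hepatic sinusoidal obstruction syndrome, in which the liver's finest vessels are damaged and blocked. The members were all genes on the array whose symbol is Psma, Psmb, Psmc, Psmd or Psme followed by a number. This rule found 43 genes of 21252 gene symbols on the array, with 99 of 149782 non-control probes. Psmc3ip and Psme3ip1 carry letters after the number and were left out. The rule did not use any measured value.

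Of the 8 livers, 4 came from mice labelled control or normal and 4 from mice labelled with weekly intraperitoneal injection of oxaliplatin for 6 weeks. All 8 mice were male; the strain, age and dose, and whether controls received a vehicle, are not given in the sources used here. Each mouse had its own Agilent one-colour array, and the series' design text calls the arrays biological replicates. RNA came from liver tissue and not from sorted cells, so fewer cells of a type and less RNA per cell cannot be told apart.

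The proteasome degrades proteins that carry ubiquitin chains. Its barrel, the 20S core, has outer rings of alpha subunits and inner rings of beta subunits, and 3 of the beta subunits carry the proteolytic sites. A 19S regulatory particle binds the ubiquitin chain, removes it, and unfolds the protein with a ring of ATPases. Under interferon the catalytic beta subunits are replaced by inducible ones, which gives the immunoproteasome and favours peptides for presentation on MHC class I. The transcription factor NRF1 (gene Nfe2l1) raises all subunit genes together when proteasome capacity falls short.

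Arrays were compared as log2 signal minus the array's 75th percentile, so a level of 7 lies 7 log2 units above that percentile. A difference is the mean of the oxaliplatin arrays minus the mean of the control arrays, with its standard error (SE). Genes were tested with limma over 13913 genes, and a gene is said to have fallen or risen where its Benjamini-Hochberg adjusted p was under 0.05. Between 27.2% and 40.9% of probes lay well above background per array, with the lowest share on oxaliplatin array 2. Each slide held 1 group, so slide and treatment cannot be told apart. Oxaliplatin arrays 1 and 2 carry another run name than the other 6. Control arrays 3 and 4 stood apart from control arrays 1 and 2 in the proteasome genes, as described below, so counts and called genes are also given without them. Of the hepatocyte markers, 9 of 10 were tested and all 9 were well above background on all 8 arrays. Their summed level was 13.47 to 13.55 in control and 13.72 to 13.82 in oxaliplatin livers. Of the 9, 5 rose (Alb, Apoa2, Serpina1a, Ttr and Ahsg), against 6.99% of all genes. These rises hold for this scaling, in which the median difference of all genes was -0.09. It was -0.71 with arrays centred on the median of all probes, and the markers are not given in that setting.

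Few proteasome genes passed the test between the groups. Of 42 members tested, 6 fell and none rose: the core subunits Psmb2 and Psmb1, the ATPases Psmc5 and Psmc6, and the assembly chaperones Psmd9 and Psmd10. The 6 that fell are 14.3% of the members, against 11.6% of all genes tested, so the share called is near the background. At an unadjusted limma p under 0.05, 14 of 42 members were lower and 0 higher, against 3185 lower and 1828 higher of 13913 genes. The share of all genes that rose was 6.99%. The difference was negative for 40 of 42 members (95.2%, against 59.4% of all genes), and its median was -0.24 against -0.09 over all genes. Single differences ran from -0.97 for Psmb9 to 0.11 for Psme3. All 4 oxaliplatin arrays lay below all 4 control arrays for 12 of 42 members (28.6%, against 18.4% of all genes), and none lay above (9.26% of all genes did). The member that was not tested, Psmb11, encodes a subunit of the thymus and was well above background on no array.

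These counts changed with which arrays were used. With control arrays 3 and 4 both left out, 0 of 42 members fell by limma, against 2.34% of all genes. At an unadjusted limma p under 0.05, 5 of 42 members were lower, against 2253 of 13913 genes. Of the 42 differences 31 were negative, and the median was -0.08 for the members and -0.08 for all genes. Of the 6 genes above, Psmb2 then differed by -0.39 (limma adjusted p = 0.0761), Psmb1 by -0.33 (0.164), Psmc5 by -0.28 (0.154), Psmc6 by -0.25 (0.224), Psmd9 by -0.46 (0.177) and Psmd10 by -0.29 (0.175). All 6 kept their direction, and for Psmb2, Psmb1 and Psmc6 the difference was smaller by more than 1.5 times.

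Leaving out single arrays also moved the counts. Without control array 3 alone 0 members fell, against 4.54% of all genes, and the median was -0.16. At an unadjusted limma p under 0.05, 11 members were then lower, against 2490 of 13913 genes. Without control array 4 alone only Psmb2 fell, against 9.93% of all genes, and the median was -0.19. Without control array 1, 8 of 42 fell, against 10.8% of all genes, and without control array 2 the count was 2, against 9.24%. Without oxaliplatin array 1 the count was 2 (7.01% of all genes), and without array 2 it was 1, Psma8 (5.75%). It was 0 without oxaliplatin array 3 (4.01% of all genes) and 0 without array 4 (5.70%). At an unadjusted limma p under 0.05, 11 and 13 members were then lower, against 2663 and 2827 of 13913 genes. No member fell among the arrays of the first run name or with the run name as a covariate. Of all genes 1.87% and 3.37% were then called lower, and the members' median was -0.24. At an unadjusted limma p under 0.05, 9 members were lower in each, against 2079 and 2210 of 13913 genes. Over the other scalings, signals and filters the median of the members minus that of all genes lay between -0.33 and -0.14, and no member rose. The count that fell ran from 1, against 6.72% of all genes (75th percentile over detected probes), to 41, against 69.6% (centring on the median of all probes, which puts the median of all genes at -0.71).

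**Figure D1:**
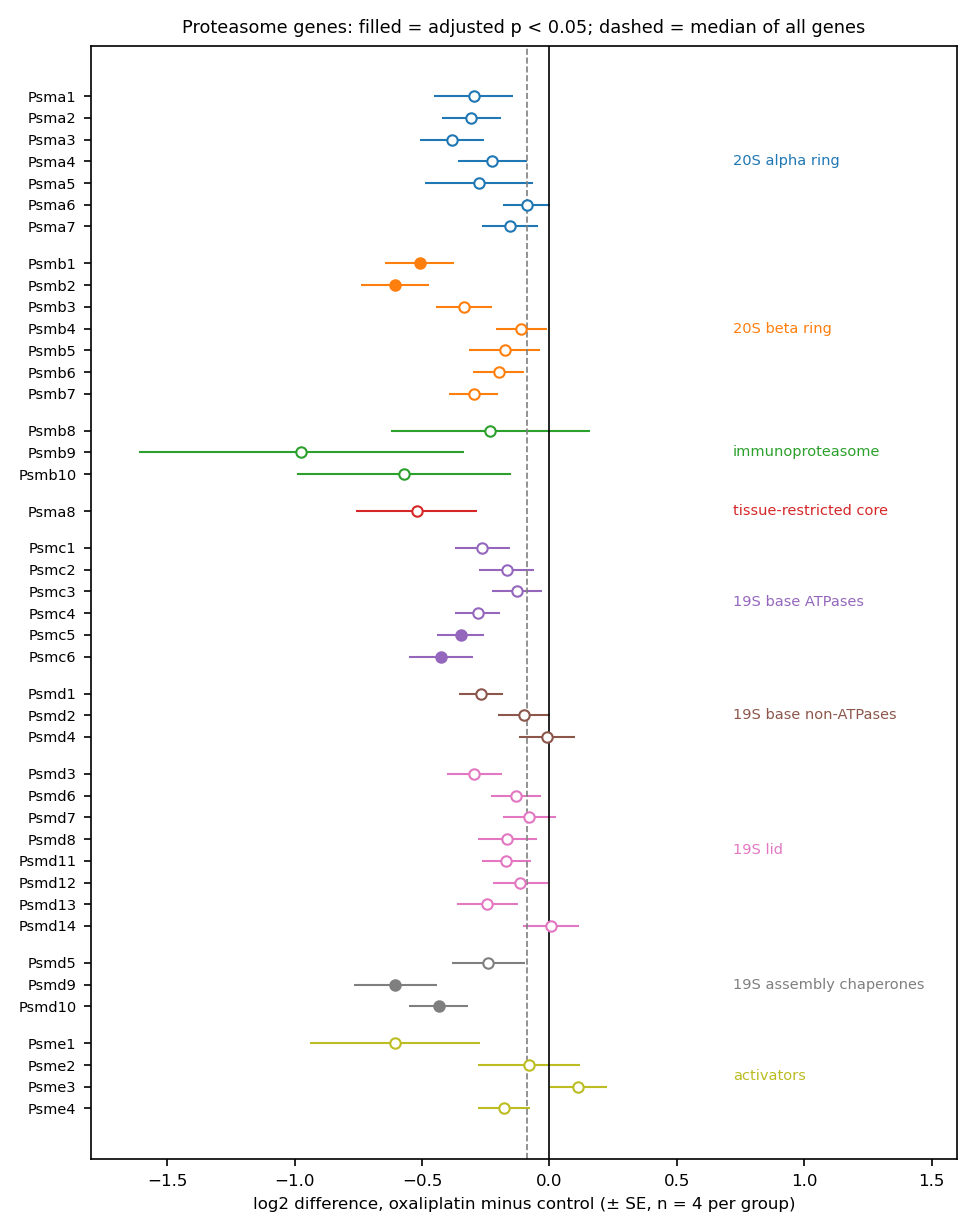
Log2 difference (oxaliplatin minus control, horizontal axis) of the 42 tested proteasome genes by role; points are differences, bars the SE, n = 4 per group. Of the 42 points 40 lie left of 0, and the 6 filled points, at -0.61 to -0.35, passed the test.

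All 14 constitutive genes of the 20S core had a negative difference, with a median of -0.28 in the alpha ring and -0.30 in the beta ring. In the alpha ring, which gates entry to the barrel, 0 of 7 genes fell by limma, and 2 were lower at an unadjusted p under 0.05. Its largest difference was that of Psma3, which stood at 6.60, 6.87, 7.14 and 6.97 in the 4 control livers and at 6.52, 6.44, 6.54 and 6.55 in the oxaliplatin livers. The groups of Psma3 did not overlap, but the difference of -0.38 ± 0.12 (SE) did not pass the test (limma adjusted p = 0.0646). Psma2 likewise did not overlap (-0.31 ± 0.12, limma adjusted p = 0.0965). For Psma1, Psma4, Psma5, Psma6 and Psma7 the differences lay between -0.30 and -0.09 and the groups overlapped. These are values of the brightest probe of each gene. In a fit over all probes, a dimmer probe of Psma4 was called lower (-0.60, limma adjusted p = 0.028). So was the dimmer probe of Psma2 (-0.44, limma adjusted p = 0.0494).

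In the beta ring 2 of 7 genes fell, against 11.6% of all genes, and both encode subunits without proteolytic activity. Psmb2 stood at 4.46, 4.57, 4.88 and 5.01 in control and at 4.20, 4.09, 4.09 and 4.10 in oxaliplatin livers. Every oxaliplatin array was below every control array, and control arrays 3 and 4 were the highest. The difference was -0.61 ± 0.13 (SE), a 1.52-fold lower signal (limma adjusted p = 0.021), the smallest p of any member. Psmb1 stood at 6.90, 7.20, 7.50 and 7.33 in control and at 6.83, 6.66, 6.65 and 6.76 in oxaliplatin livers. Here too the groups were separate, though control array 1 and oxaliplatin array 1 were close. The difference was -0.51 ± 0.14 (limma adjusted p = 0.0363).

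The 3 constitutive catalytic subunits did not pass the test. Psmb5, which carries the chymotrypsin-like site, stood at 6.03, 6.30, 6.59 and 6.52 in control and at 6.19, 6.08, 6.14 and 6.33 in oxaliplatin livers (-0.17 ± 0.14, limma adjusted p = 0.396). Control array 1 was the lowest of all 8 for this gene. Psmb6, with the caspase-like site, stood at 7.03, 7.17, 7.37 and 7.26 against 6.999, 6.95, 7.07 and 7.01 (-0.20 ± 0.10, limma adjusted p = 0.183). The groups of Psmb6 overlapped only at control array 1. Psmb7, with the trypsin-like site, stood at 8.08, 8.22, 8.37 and 8.21 against 7.83, 7.89, 7.99 and 7.98; the groups were separate, yet the difference of -0.30 ± 0.10 had a limma adjusted p of 0.0641. Of the other core beta subunits, Psmb3 had a difference of -0.33 without overlap and Psmb4 one of -0.11 with overlap.

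**Figure D2:**
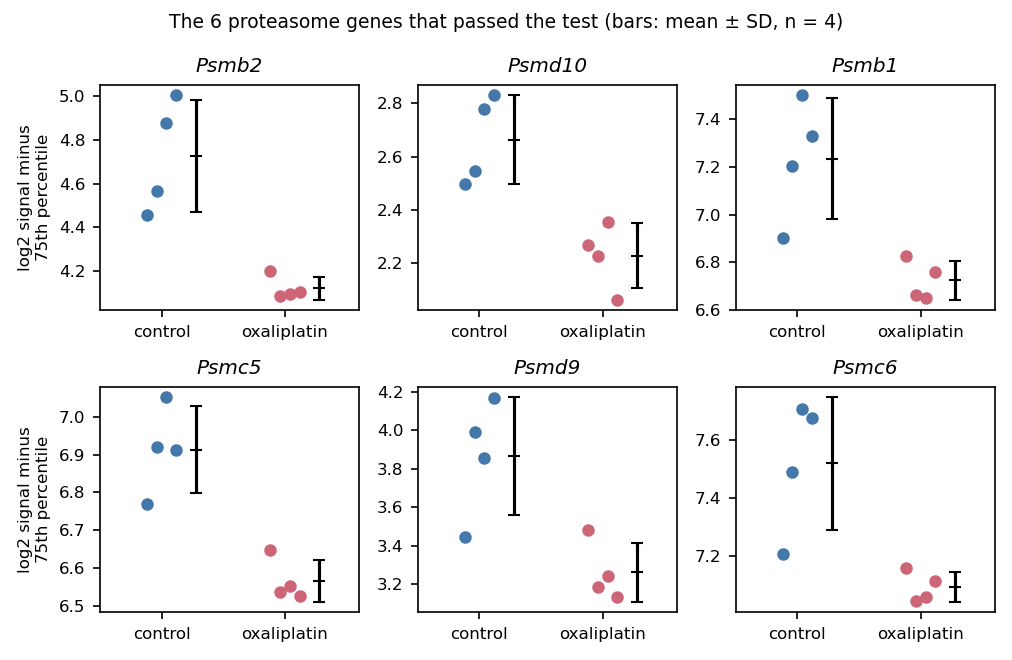
Log2 signal minus the array's 75th percentile (vertical axis, a separate range per panel, not starting at 0) of the 6 proteasome genes that passed the test. Points are single livers and bars the mean ± SD (n = 4 per group); the groups overlap only for Psmd9.

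The 19S particle had 17 genes tested, of which 2 fell (against 11.6% of all genes), both from the ring of ATPases at its base. Psmc5 stood at 6.77, 6.92, 7.05 and 6.91 in control and at 6.65, 6.54, 6.55 and 6.53 in oxaliplatin livers. The groups were separate, with a difference of -0.35 ± 0.09 (limma adjusted p = 0.0365). Psmc6 stood at 7.21, 7.49, 7.70 and 7.67 against 7.16, 7.04, 7.06 and 7.11. The lowest control, array 1, was just above the highest oxaliplatin array, and the difference was -0.43 ± 0.12 (limma adjusted p = 0.0472). The other ATPases, Psmc1 to Psmc4, had differences of -0.28 to -0.13, and of these only Psmc4 had groups that did not overlap.

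Among the non-ATPase subunits of the base, 0 of 3 fell by limma (1 at an unadjusted p under 0.05). Psmd1, a scaffold subunit, had the largest difference of these at -0.27 ± 0.09 (limma adjusted p = 0.0658). It stood at 7.50, 7.68, 7.69 and 7.72 in control and at 7.40, 7.32, 7.38 and 7.41 in oxaliplatin livers, with no overlap. Psmd2, the other scaffold, had -0.10, and Psmd4, which binds ubiquitin chains, had -0.01. In the lid 0 of 8 fell (1 at an unadjusted p under 0.05) and the median was -0.15. Psmd3 had the largest difference there, -0.29 ± 0.11 (limma adjusted p = 0.0869), at 7.79, 7.84, 8.12 and 8.08 against 7.63, 7.62, 7.64 and 7.76, again without overlap. Psmd14, the deubiquitinase that removes the chain from the substrate, had a difference of 0.01 and overlapping groups. Its dimmer probes were at -0.19 and -0.33, and neither passed the test. The remaining lid genes (Psmd6, Psmd7, Psmd8, Psmd11, Psmd12 and Psmd13) lay between -0.24 and -0.08.

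Assembly chaperones of the 19S base that carry Psmd names had 2 of 3 genes called lower, against 11.6% of all genes. These proteins hold ATPases during assembly and are not part of the finished particle. Psmd9 stood at 3.44, 3.99, 3.86 and 4.17 in control and at 3.48, 3.18, 3.24 and 3.13 in oxaliplatin livers. Control array 1 lay below oxaliplatin array 1, so the groups overlapped, and the difference was -0.60 ± 0.16 (limma adjusted p = 0.0382). Psmd10, also known as gankyrin, stood at 2.50, 2.55, 2.78 and 2.83 against 2.27, 2.23, 2.36 and 2.06. Its groups were separate, with a difference of -0.44 ± 0.12 (limma adjusted p = 0.0359). Across 22 alternative settings the calls of Psmd9 and Psmd10 were each lost in 14. The other Psmd10 probe, at a mean level of 2.31 against 2.45, had a difference of 0.26. Dimmer probes of Psmd9 were at -0.23 and -0.004. Psmd5 differed by -0.24 and did not pass the test. Of the other chaperones and the inhibitor Psmf1, 6 of 8 listed were tested and 0 passed the test (1 at an unadjusted limma p under 0.05). Their differences ran from -0.30 to -0.08; Pomp, which helps the core mature, had -0.08.

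**Figure D3:**
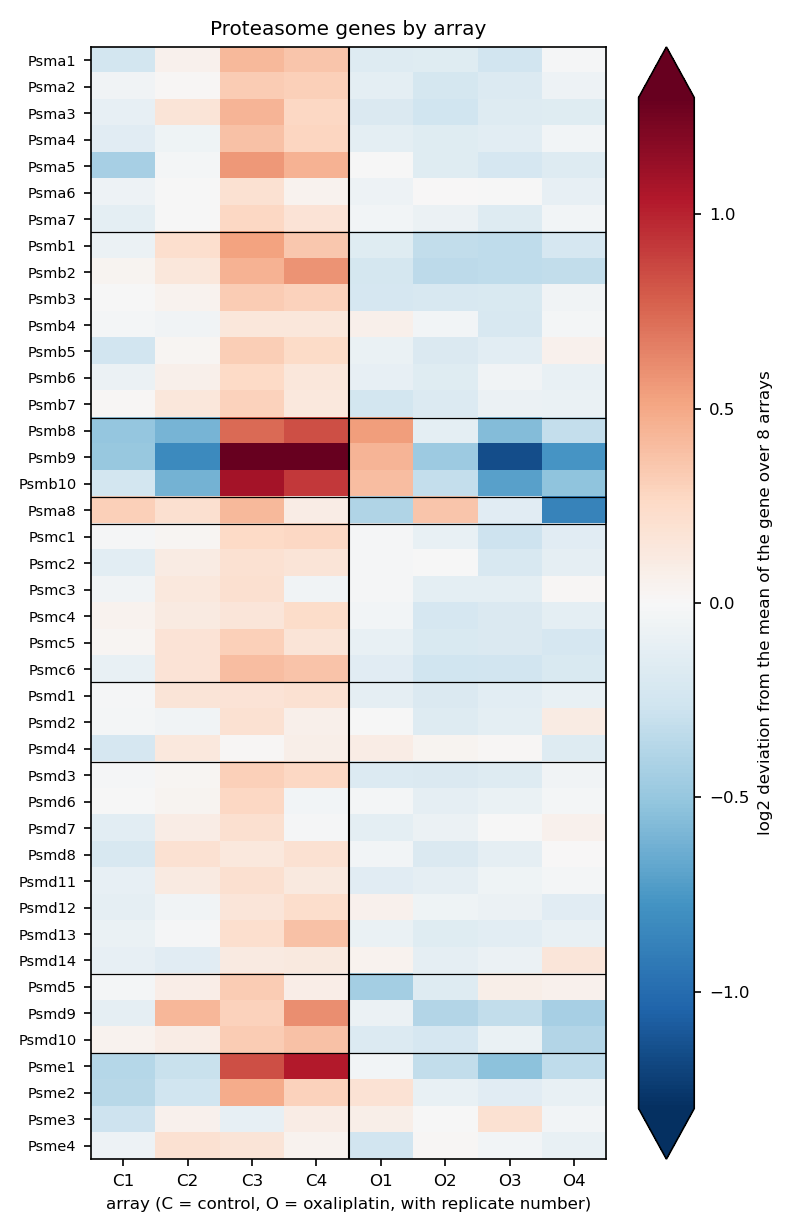
Deviation of each tested proteasome gene (rows, grouped by role) from its own mean over the 8 arrays, in log2 units (colour; values beyond the ends of the scale are clipped), by array (columns). Control arrays 3 and 4 hold the highest of the 8 values for 37 of 42 genes.

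The proteasome genes varied together from liver to liver, and the control livers differed among themselves. The median level over the 42 genes was 7.09, 7.30, 7.67 and 7.57 in control and 7.28, 7.11, 7.10 and 7.16 in oxaliplatin livers. Control array 1 was thus the lowest of all 8, while control arrays 3 and 4 were the highest. Arrays 3 and 4 were the 2 highest controls for 30 of 42 members (71.4%, against 27.0% of all genes). The highest of the 8 arrays was one of these 2 for 37 members (88.1%, against 42.3% of all genes). Control array 1 was the lowest control for 33 members (78.6%, against 30.0%). The SD was larger in control than in oxaliplatin livers for 37 members (88.1%, against 64.7%). These arrays were singled out after their values were seen, so the counts are a description and carry no test. Among the 31 constitutive core and 19S genes the median SD was 0.16 in control and 0.08 in oxaliplatin livers, against 0.23 and 0.18 over all genes.

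The 3 inducible core genes spanned 1.44 (Psmb8) to 2.87 (Psmb9) log2 units between the lowest and highest liver. By limma 0 of 3 passed the test, with 0 also at an unadjusted limma p under 0.05. For Psmb9, the inducible partner of Psmb6, the levels were 5.45, 5.11, 7.65 and 7.49 in control and 6.38, 5.47, 4.78 and 5.18 in oxaliplatin livers. Control arrays 3 and 4 were over 1 log2 unit above every other array, and control arrays 1 and 2 lay among the oxaliplatin arrays. The difference of -0.97 ± 0.64 did not pass the test (limma adjusted p = 0.304). Psmb10, the inducible partner of Psmb7, stood at 7.04, 6.65, 8.36 and 8.19 against 7.68, 6.96, 6.57 and 6.74 (-0.57 ± 0.42, limma adjusted p = 0.357). Psmb8, the inducible partner of Psmb5, stood at 6.45, 6.35, 7.69 and 7.79 against 7.49, 6.83, 6.39 and 6.64 (-0.23 ± 0.39, limma adjusted p = 0.706). In both, oxaliplatin array 1 came next after control arrays 3 and 4. With control arrays 3 and 4 left out the differences changed sign, to 0.17 for Psmb9, 0.14 for Psmb10 and 0.44 for Psmb8, and none passed the test.

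The activator cap encoded by Psme1 and Psme2 opens the core without ATP and is also induced by interferon. Psme1 stood at 7.39, 7.47, 8.60 and 8.79 in control and at 7.73, 7.44, 7.23 and 7.43 in oxaliplatin livers (-0.61 ± 0.33, limma adjusted p = 0.225). Psme2 stood at 7.47, 7.58, 8.32 and 8.13 against 8.02, 7.74, 7.69 and 7.74 (-0.08 ± 0.20, limma adjusted p = 0.806). Control arrays 3 and 4 were again the highest for both. Psme3 and Psme4, nuclear activators, had differences of 0.11 and -0.18 and did not pass the test.

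**Figure D4:**
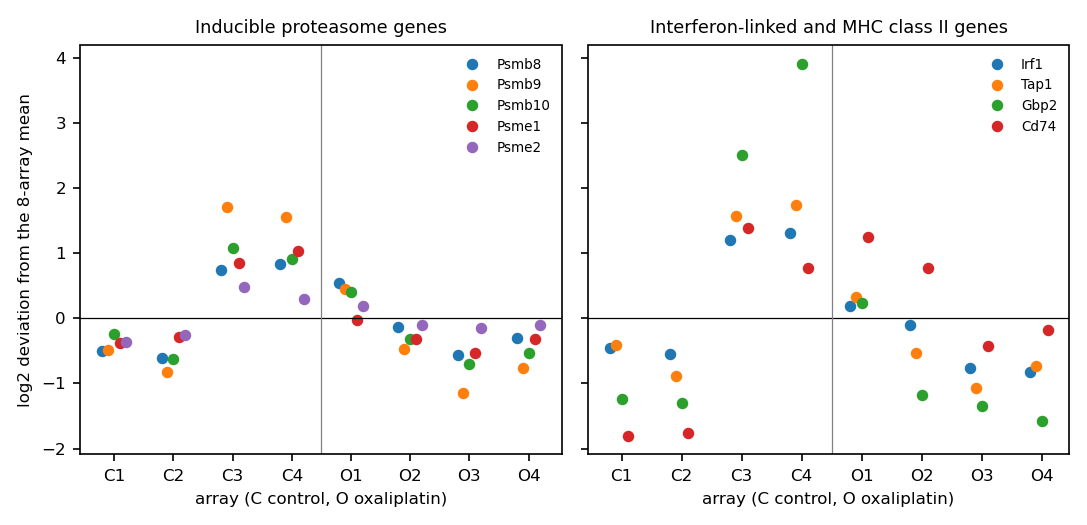
Log2 deviation from the 8-array mean (vertical axis) for 5 inducible proteasome genes (left) and for Irf1, Tap1, Gbp2 and Cd74 (right), 1 point per gene and liver. Control arrays 3 and 4 lie above 0 for all 9 genes, and oxaliplatin array 1 lies above 0 for all but Psme1.

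The same 3 arrays were the highest for other interferon-linked genes. Control array 3, control array 4 and oxaliplatin array 1 were the 3 highest arrays for Psmb8, Psmb9, Psmb10, Psme1 and Psme2, and for 14 of 17 interferon and antigen presentation genes tested (of 18 listed). Over all genes this held for 4.28%. These 3 arrays were singled out after their values were seen, so the counts are a description and carry no test. Tap1, a peptide transporter of the MHC class I pathway, stood at 6.35, 5.89, 8.33 and 8.51 in control and at 7.09, 6.24, 5.70 and 6.04 in oxaliplatin livers. Gbp2, an interferon-induced GTPase, stood at 3.27, 3.20, 7.01 and 8.40 against 4.74, 3.33, 3.15 and 2.92. Of the list, B2m alone passed the test, and it rose: B2m, the light chain of MHC class I, stood at 10.28, 10.45, 10.38 and 10.22 in control and at 10.74, 10.704, 10.66 and 10.698 in oxaliplatin livers, without overlap (0.37 ± 0.09, limma adjusted p = 0.0276). This call was lost in 14 of 22 alternative settings. The difference of B2m was 0.13 with quantile normalization (limma adjusted p = 0.247), 0.17 with the series matrix values (0.174) and -0.26 with arrays centred on the median of all probes (0.125).

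The summed level of leukocyte markers also varied among the control livers, though not every marker did. Of 14 listed, 12 were tested and only Cd3e, a T cell receptor component, rose (0.67 ± 0.09, limma adjusted p = 0.00467). Of the 12 markers 11 had a positive difference, against 5650 of 13913 genes, and the median was 0.49, against -0.09 over all genes. The groups did not overlap, with oxaliplatin above, for 2 of the 12 (9.26% of all genes). The summed level of the markers ran from 7.27 to 9.58 in control and from 8.10 to 9.52 in oxaliplatin livers. Linear signals were summed, so bright markers weigh most. The SD was larger in control livers for 7 of 12 markers (58.3%, against 64.7% of all genes). In control livers Cd3e stood at 2.26, 2.21, 2.44 and 2.27, and Ptprc at 3.04, 2.94, 3.48 and 3.48. Cd74, the MHC class II invariant chain, stood at 5.67, 5.72, 8.86 and 8.24 in control and at 8.71, 8.24, 7.04 and 7.29 in oxaliplatin livers. It was high on control arrays 3 and 4 and on oxaliplatin arrays 1 and 2. The part of leukocytes in the inducible proteasome levels was not tested.

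The exchange of constitutive for inducible catalytic subunits was read as the log2 difference between partners in each liver; as probes differ in brightness, only its change between groups has a meaning. Psmb9 minus Psmb6 was -1.58, -2.06, 0.28 and 0.24 in control and -0.62, -1.49, -2.28 and -1.83 in oxaliplatin livers. The change was -0.77 (exact permutation test, two-sided, p = 0.286, adjusted over 3 pairs 0.857). It was -0.06 for Psmb8 minus Psmb5 (exact permutation p = 0.886) and -0.27 for Psmb10 minus Psmb7 (exact permutation p = 0.629). The smallest p the design allows is 0.0286. All 3 changes turned positive with control arrays 3 and 4 left out (0.27, 0.42 and 0.37).

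Upstream sequences were set beside these patterns, since the inducible genes moved together from liver to liver. RefSeq promoters (assembly GRCm38.p6) were found for 36 of 43 members, and the 250 bases before each start were searched on both strands. Psma6, Psmc2 and Psme2 had windows at further starts. A member was counted if any of its windows matched, whereas the share over all promoters counts each promoter. Psmb9 and Tap1 start head to head with 225 bases between them, and this shared stretch at chr17:34187331-34187555 is shown on the minus strand, toward the start of Psmb9. The upstream window of Psmb8, on the plus strand at chr17:34197945-34198194, is the one among the members that holds TTCNNNGAA. Capitals mark a CCAAT box (as its reverse complement) in the first and the TTCNNNGAA match in the second.
Psmb9 to Tap1: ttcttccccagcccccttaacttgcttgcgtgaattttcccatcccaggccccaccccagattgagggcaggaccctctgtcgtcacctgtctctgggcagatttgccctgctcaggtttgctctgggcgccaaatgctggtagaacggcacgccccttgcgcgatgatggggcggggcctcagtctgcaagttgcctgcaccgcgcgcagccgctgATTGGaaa
Psmb8: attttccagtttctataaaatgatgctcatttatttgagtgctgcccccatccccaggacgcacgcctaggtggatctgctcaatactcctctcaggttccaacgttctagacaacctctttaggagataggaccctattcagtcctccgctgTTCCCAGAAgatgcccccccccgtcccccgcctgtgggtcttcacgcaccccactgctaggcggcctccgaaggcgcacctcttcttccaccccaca

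The TTCNNNGAA letters were upstream of 1 of 36 members (2.78%) and in 7.02% of all 32851 promoters of the table. The core of the interferon-stimulated response element, bound by interferon regulatory factors, was upstream of 3 members (Psmb3, Psmd4 and Psmd9, 8.33%, against 2.98%). It was upstream of none of the 5 inducible genes. These are matches of letters and not sites.

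NRF1 and NRF2 bind the antioxidant response element, searched here as TGACNNNGC. It was upstream of 5 of 36 members (13.9%, against 10.2% of all promoters): Psmb5, Psmb6, Psmc6, Psmd12 and Psmd9. Psmc6 and Psmd9 are the 2 of these that fell, and their windows, both on the plus strand, are shown with the match in capitals (for Psmc6 as its reverse complement). They lie at chr14:45329574-45329823 for Psmc6 and chr5:123227940-123228189 for Psmd9.
Psmc6: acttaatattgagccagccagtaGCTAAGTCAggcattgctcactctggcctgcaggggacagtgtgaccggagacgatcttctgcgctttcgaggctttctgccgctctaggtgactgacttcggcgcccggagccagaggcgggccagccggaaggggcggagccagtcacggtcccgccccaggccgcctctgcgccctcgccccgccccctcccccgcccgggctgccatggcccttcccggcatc
Psmd9: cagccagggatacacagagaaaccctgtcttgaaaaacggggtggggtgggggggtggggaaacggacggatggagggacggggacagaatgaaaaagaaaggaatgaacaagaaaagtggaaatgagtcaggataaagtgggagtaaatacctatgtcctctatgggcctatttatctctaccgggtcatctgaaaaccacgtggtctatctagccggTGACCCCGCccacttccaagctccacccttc

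Of the other motifs, CCAAT was upstream of 14 members (38.9%, against 33.8% of all promoters). CACGTG, the E-box, was upstream of 4 members, Psma4, Psmb10, Psmd9 and Psme3 (11.1%, against 6.02%). The palindrome bound by nuclear respiratory factor, unrelated to the NRF1 above, was upstream of Psma2 alone (2.78%, against 0.782%).

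Genes around the proteasome were read from lists of 75 symbols, 67 of them tested, of which 3 rose and 6 fell. Of all genes tested 6.99% rose and 11.6% fell, so these counts do not set the lists apart from the background. With control arrays 3 and 4 left out, Rps27a still rose and Nqo1 still fell, and no other gene of the lists passed the test. The differences of Srxn1 (-0.68), Ufd1 (-0.32) and Mafk (-0.53) were then smaller by more than 1.5 times. Among regulators of proteasome genes 1 of 11 rose and 2 fell. Nfe2l1, which encodes NRF1, rose: it stood at 4.92, 5.44, 5.29 and 4.90 in control and at 5.92, 5.67, 5.76 and 5.62 in oxaliplatin livers. All oxaliplatin arrays were above all control arrays (0.60 ± 0.15, limma adjusted p = 0.0287), but with arrays centred on the median of all probes the difference was -0.03. Ufd1, a cofactor of the segregase that extracts ubiquitinated proteins, stood at 5.19, 5.40, 5.65 and 5.80 against 5.12, 4.93, 4.95 and 4.93 (-0.53 ± 0.14, limma adjusted p = 0.0365). Mafk, a small MAF partner of NRF1 and NRF2, stood at 5.20, 5.06, 5.58 and 5.93 against 4.94, 4.63, 4.25 and 4.56 (-0.85 ± 0.22, limma adjusted p = 0.0333). In both the groups were separate, and control arrays 3 and 4 were the highest. Across 22 alternative settings the call was lost in 12 for Nfe2l1, in 15 for Ufd1 and in 11 for Mafk. Nfe2l2, which encodes NRF2, had a difference of -0.00 (limma adjusted p = 0.999).

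Targets of NRF2 in detoxification had 3 of 9 genes called, all lower, against 11.6% of all genes called lower. Nqo1, a quinone reductase, stood at 3.24, 3.44, 4.70 and 4.62 in control and at 0.84, 1.51, 0.85 and 1.22 in oxaliplatin livers. The groups were far apart, with a difference of -2.89 ± 0.36 (limma adjusted p = 0.00375), and control arrays 3 and 4 were again the highest. Gsta2, a glutathione transferase, stood at 6.94, 6.80, 7.99 and 6.77 against 4.98, 5.79, 6.07 and 6.05 (-1.40 ± 0.34, limma adjusted p = 0.0265). Srxn1, which repairs oxidised peroxiredoxins, stood at 5.44, 5.68, 6.80 and 6.30 against 5.06, 4.97, 4.64 and 4.86 (-1.17 ± 0.28, limma adjusted p = 0.0269). Neither had overlapping groups. Across 22 alternative settings the call was lost in 7 for Gsta2, in 8 for Srxn1 and in 0 for Nqo1.

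Of the ubiquitin genes and E1 enzymes, 1 of 10 rose and 0 fell by limma (2 were lower at an unadjusted p under 0.05). Rps27a, which encodes ubiquitin fused to a ribosomal protein, stood at 8.13, 7.95, 8.13 and 8.06 in control and at 8.79, 8.79, 8.71 and 8.72 in oxaliplatin livers (0.68 ± 0.09, limma adjusted p = 0.00375), without overlap; with arrays centred on the median of all probes its difference was 0.06 and did not pass the test. Ubb, a polyubiquitin gene, had a difference of -0.36 and did not pass the test. Of the ubiquitin receptors and deubiquitinases, 1 of 14 fell: Ubqln2, a shuttle that brings ubiquitinated proteins to the proteasome. It stood at 5.63, 5.67, 6.00 and 5.95 in control and at 5.41, 5.37, 5.29 and 5.17 in oxaliplatin livers, without overlap (-0.51 ± 0.12, limma adjusted p = 0.0249). The call of Ubqln2 was lost in 10 of 22 alternative settings.

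Different probes for a gene allowed the differences to be read again. Of the 99 member probes 96 were kept, 87 with a negative and 9 with a positive difference; 8 were called lower and none higher, while 6012 of all 54636 kept probes were called lower. Among the 40 members with several kept probes, 32 had the same negative sign in all and 8 had both signs. Of the 6 genes that fell, Psmb2 (-0.61 and -0.37) and Psmc6 (-0.43 and -0.15) had 1 sign. In the fit over all probes the first Psmc6 probe did not pass (limma adjusted p = 0.0536). Psmd10 (-0.44 and 0.26) and Psmc5 (-0.35, 0.21 and -0.62) had both. Psmd9 (-0.60, -0.23 and -0.004 ± 0.22) and Psmb1 (-0.51 and 0.003 ± 0.12) each had a last probe within its SE of 0. By sign alone Psmd9 counts among the 32 and Psmb1 among the 8. Averaging the kept probes of each gene left Psmb2 as the single member called.

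The probes of Psmb1, Psmc6 and Psmd9 on which the calls rest are shown because each spans an intron on build mm9, and so reads spliced RNA. They map to chr17:15630098-15631393 on the minus strand (Psmb1), to chr14:45966487-45968313 on the plus strand (Psmc6) and to chr5:123689746-123691886 on the plus strand (Psmd9). The 2 further probes of Psmc5, which differ in sign, map to chr11:106124192-106124376 (first line for Psmc5, 0.21 ± 0.25) and to chr11:106122563-106122762 (second line, -0.62 ± 0.14, limma adjusted p over all probes = 0.0197), both on the plus strand. Each is 60 bases long and in lower case, as no position is set apart.
Psmb1: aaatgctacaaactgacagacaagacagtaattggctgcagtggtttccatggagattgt
Psmc6: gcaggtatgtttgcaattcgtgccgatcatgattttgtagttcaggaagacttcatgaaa
Psmd9: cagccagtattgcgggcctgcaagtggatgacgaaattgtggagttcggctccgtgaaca
Psmc5, first: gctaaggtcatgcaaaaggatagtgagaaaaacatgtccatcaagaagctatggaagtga
Psmc5, second: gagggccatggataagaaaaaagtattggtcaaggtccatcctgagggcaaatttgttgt

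The first of these Psmc5 probes had an SE larger than its difference. Psmb8 had 3 kept probes, at -0.23, -0.59 and -0.83, and Psmb9 had 2, at -0.97 and -0.89; all 5 were negative and none passed the test. For Psme3 the brightest probe was at 0.11 and the other at -0.78 (limma adjusted p over all probes = 0.0882).

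**Figure D5:**
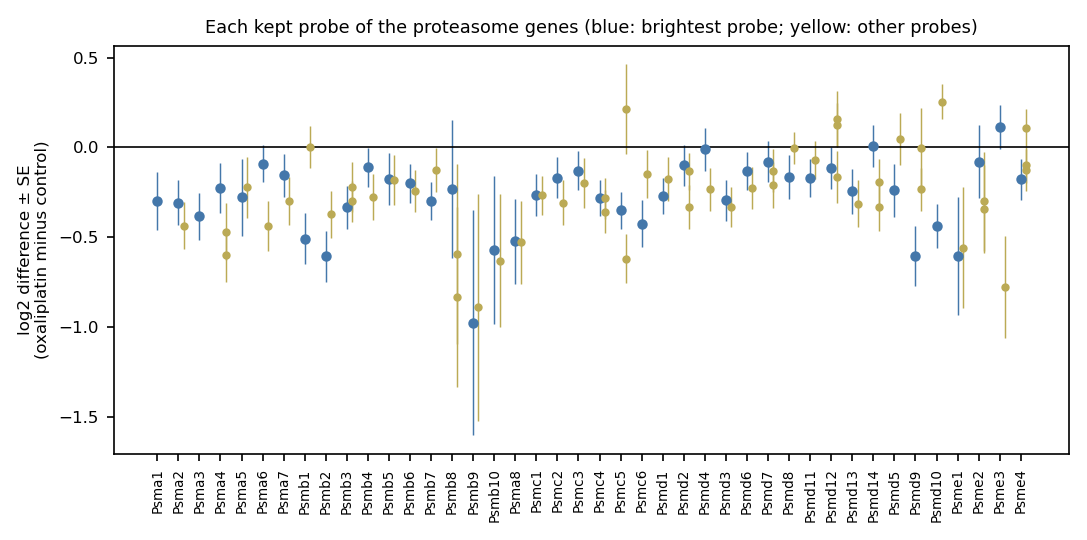
Log2 difference (oxaliplatin minus control) ± SE, n = 4 per group, of each of the 96 kept probes of the 42 tested proteasome genes; blue points are the brightest probe of a gene and yellow points its other probes. Of the 96 points 87 lie below 0.

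One member is mostly known from testis: Psma8, an alternative alpha subunit, was well above background on all 8 arrays. It stood at 1.10, 1.002, 1.21 and 0.89 in control and at 0.40, 1.15, 0.64 and -0.08 in oxaliplatin livers. Oxaliplatin array 2 lay within the control range, and the difference of -0.52 ± 0.24 did not pass the test (limma adjusted p = 0.152).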

How the data were processed

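Per the file headers, Feature Extraction was at version 12.0.3.1; the submitters' processing notes give 10.7 and list limma. The processed signal in the deposited files is an intensity on a linear scale, background-subtracted by the authors' scanner software. The deposited series matrix holds log2 values of 46867 probes whose scaling between arrays is not stated; it correlated with the log2 signal of its array at 0.9964 to 0.9998. Flags of 0 or 1 in the deposited files mark spots well above background.

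From the log2 signal of each array its 75th percentile was subtracted. Probes well above background on at least 4 of 8 arrays were kept, and the brightest probe per symbol was tested in R 4.3.3 with limma 3.58.1 (6 residual and 2.37 prior degrees of freedom) at a threshold of 0.05 after Benjamini-Hochberg adjustment. Of 48257 probes with a curated accession 47985 were named through RefSeq. Tested on simulated data, 23.9% of genes changed by 0.5, 61.2% of those changed by 1 and 86.4% of those changed by 2 (log2) were called, and 7 of 121 calls were false. In that simulation genes were drawn independently and 200 of 13913 were changed. In the real fit 2590 genes were called and genes varied together by array. The simulated shares therefore do not give the power or the false calls of the real fit.

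The members and lists were chosen with earlier results of these data known. Some listed symbols are older names of genes also listed. Genes given with full values are those called, the catalytic subunits, the member of each role with the largest difference and the called pathway genes; Tap1, Gbp2, Irf1, Cd74, Psma2, Psme2 and others named beyond these were chosen after their values were seen. Replicate numbers did not pair the arrays. The number of arrays limits the precision. Results for some items are not reported here.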

Additional observations from a re-analysis of the deposited data

Results flagged for a closer look

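In 8 of 108 groups of 4 arrays checked (members and called pathway genes), 1 array lay so far from the others that its gap divided by the group's range passed the 95% critical value of Dixon's test. Chance gives about 1 in 20 such groups. Among the oxaliplatin arrays this ratio was 0.856 for Psmb2, 0.923 for Psmb3, 0.840 for Psmd3, 0.862 for Psme2 and 0.908 for Ufd1. Among the control arrays it was 0.846 for Psmd1, 0.855 for Psmd8 and 0.855 for Gsta2. The array that stood apart was oxaliplatin array 1 for Psmb2, Psme2 and Ufd1, where it was the highest. It was oxaliplatin array 4, also the highest, for Psmb3 and Psmd3. Control array 1 was the lowest for Psmd1 and Psmd8, and control array 3 was the highest for Gsta2.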

How the results depend on the processing

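The count of the 42 proteasome genes that fell, with the share of all genes called lower in the same fit, was 16 with normexp background correction (18.2%), 3 with quantile normalization (8.07%), 3 with the series matrix values (8.13%) and 41 with centring on the median of all probes (69.6%). It was 1 with the 75th percentile over detected probes (6.72%) and 1 with the mean of all kept probes (9.31%). It was 0 with the first run name alone (1.87%), the run name as a covariate (3.37%) and the replicate block (1.89%). With the replicate block 13 members were lower at an unadjusted limma p under 0.05, against 2734 of 13913 genes. The count was also 0 with control arrays 3 and 4 both left out (2.34%), a setting chosen after seeing the data. Leaving out 1 array gave 0 to 8. The replicate numbers did not pair the arrays: same-numbered arrays correlated at -0.32 to -0.08 in their deviations from the group means. No proteasome gene rose under any setting. The members' median was -0.87 with median centring, and -0.31 to -0.16 leaving out 1 array.

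In the pathway lists, the genes that fell numbered 14 with normexp (18.2% of all genes), 55 with median centring (69.6%) and 10 with eBayes trend and robust settings (12.6%). They numbered 1 with the first run name, the run covariate, the replicate block or control arrays 3 and 4 left out. Those that rose numbered 0 with median centring and 1 in those last 4 settings. Leaving out 1 array gave 1 to 8 that fell and 1 to 3 that rose.

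Psmb8 minus Psmb5 was 0.081 with normexp, 0.42 with control arrays 3 and 4 left out, and -0.28 to 0.13 leaving out 1 array (0.07 without control 3, 0.13 without control 4, 0.08 without oxaliplatin 3, 0.06 without oxaliplatin 4). With control arrays 3 and 4 left out Psmb9 minus Psmb6 was 0.27, Psmb10 minus Psmb7 0.37, Psmb5 0.021, Psmb8 0.44, Psmb9 0.17, Psmb10 0.14 and Psme1 0.030. Psmb8 ran from -0.47 to 0.0078 leaving out 1 array, the latter without control 4. With median centring Nfe2l1 was -0.025 and B2m -0.26. Where no value above bears on it, the cause was not tested.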
